A study of Mus musculus with 50 samples.

Results

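The 16 unirradiated primary tumors of the series were compared with each other, to find the genes and the groups of co-varying genes that differed most between sarcomas that had arisen independently. All libraries that the labels give as primary tumors at a radiation dose of 0 Gy were taken, 8 from mice given an isotype control antibody and 8 from mice given anti-PD-1, and the antibody was disregarded. They made up 16 of the 50 RNA-seq libraries. Primary p53/MCA sarcomas had been induced in Trp53 fl/fl mice of strain 129/SvJae, 6 to 10 weeks of age, by an adenovirus expressing Cre recombinase and 300 µg of the carcinogen 3-methylcholanthrene (MCA) in the gastrocnemius muscle. The yardstick was the 8 unirradiated transplants, 4 isotype and 4 anti-PD-1, which had grown in the same muscle of syngeneic 129/SvJae mice from 50000 cells of cell line 402230, a single line made from an untreated primary p53/MCA sarcoma. Every mouse had received 200 µg of antibody, and tumors were taken 3 days after treatment. The 16 primary tumors and 8 transplants given 20 Gy were used only as a second set in which the same spread could be measured, and no treatment was compared.

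The models limit what such a spread can show. The virus delivered Cre to whatever cells it reached near the needle, so the cell of origin was not fixed by a promoter. Mice of both sexes were used according to the study, but the labels do not give the sex of a mouse. Each library came from a piece of whole tumor with stroma, immune cells and residual muscle in it, each tumor has 1 library, and the spread therefore holds differences between tumors, between pieces of a tumor and between library preparations. In such bulk RNA, fewer cells of a type and less RNA per cell cannot be told apart.

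Chemically induced sarcomas arise from mesenchymal cells that acquire their own mutations in each animal. Mesenchymal cells of the limb keep a record of their position in the expression of homeobox genes, above all the Hox clusters, in which neighboring genes are switched on along the body and limb axes. Genes that normally serve only germ cells are silenced in other tissues, often with methylation of CpG dinucleotides at the promoter, and imprinted genes are read from a single parental copy. Tumors can differ in all of these, and also in the cells that surround and enter them.

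Depth was similar in both models, with 37743696 to 53341463 reads counted in genes in the primary tumors and 39637928 to 54008259 in the transplants. No 2 libraries of a group agreed within sampling noise: over 68 pairs, chi-square was at least 85.6 times its degrees of freedom. Levels below are log2 CPM (counts per 1e+06 counted reads) on a scale where a gene with 0 counts reads −4.45, and 14326 genes averaging at least 1 CPM over the 24 libraries were tested. Trp53, the gene cut by Cre, read 4.32 to 5.64 (median 4.67) in the primary tumors and 4.66 to 5.5 (median 4.86) in the transplants. These counts over the whole gene do not test the deletion. All 10 genes of a mesenchymal list (Vim, Pdgfra, Prrx1 and others) were tested, and their mean level lay between 6.79 and 7.86 in every primary tumor and between 6.77 and 7.38 in the transplants.

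The primary tumors were spread more widely than the transplants. The Euclidean distance of each library from the mean of its model, over all genes tested and corrected for the unequal group sizes, was 78.4 ± 12.2 (SD, n = 16) in primary tumors and 60.7 ± 16.5 (SD, n = 8) in transplants. Distances ran from 62.7 to 102.99 (median 76.4) and from 36.6 to 94.0 (median 59.9), respectively. The mean distances differed by 17.7 (exact two-sided permutation test, p = 0.0069, over 735471 splits, of which the smallest possible p is 1.36e-06). The groups overlapped: 12 of 16 primary tumors lay above the second-highest transplant at 66.8, but only 2 lay above the highest, transplant isotype 1 at 94.0, and without that transplant the difference was 22.9.

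Isotype tumors 4 (102.99) and 5 (98.4) and anti-PD-1 tumors 6 (93.4) and 4 (87.8) lay farthest from the mean of the primary tumors. The same 4 libraries had the lowest rank correlation between transcript length and deviation from the median primary tumor, at −0.45, −0.42, −0.30 and −0.37 over 14320 genes, against −0.09 to 0.33 in the other 12. The transplants ranged from −0.44 to 0.44 on that measure. With transcript length and GC content regressed out of every library, the difference in distance between the models was 17.7 (exact permutation test, p = 0.0039), as large as without the correction.

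**Figure D1:**
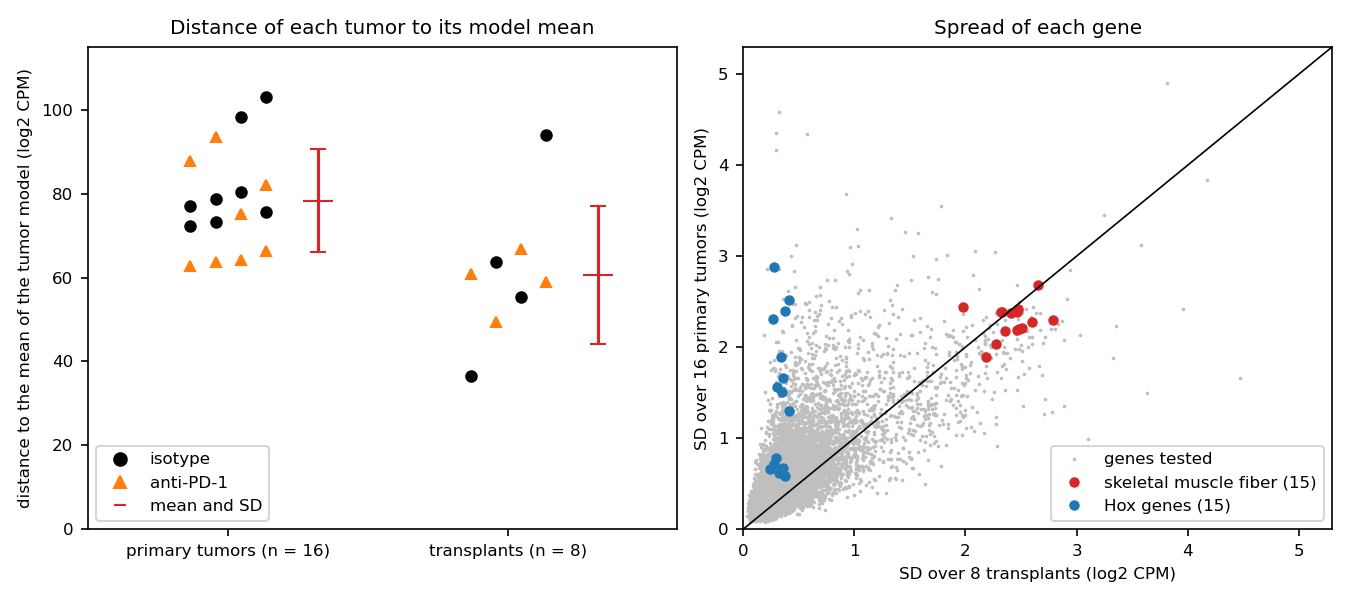
Left, distance of each of the 24 unirradiated libraries from the mean of its tumor model (log2 CPM, over 14326 genes), with the mean and SD of each model; primary tumors spread from 62.7 to 102.99 and transplants from 36.6 to 94.0. Right, SD of each gene over 8 transplants (x axis) against its SD over 16 primary tumors (y axis), both in log2 CPM, with the 15 genes of the Hox list in blue, all above the diagonal, and the skeletal muscle list in red, close to it with 4 of 15 genes above.

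Gene by gene, the excess was broad and small. The median SD over the tumors was 0.372 log2 CPM in primary tumors and 0.286 in transplants, with a median ratio of 1.32. The SD was higher in primary tumors for 10887 of 14326 genes (76.0%) and at least 2 times as high for 2618 (18.3%). Among the 13479 genes that averaged at least 1 CPM in each model, 2386 (17.7%) had an SD at least 2 times as high. The irradiated tumors, which did not enter these SDs, gave the same picture. There the SD was higher in primary tumors for 10509 of 14131 genes (74.4%) and at least 2 times as high for 2361 (16.7%), with a median ratio of 1.28. The 4 tumors farthest from the mean, isotype 4 and 5 and anti-PD-1 4 and 6, were also left out. This choice was made after seeing the data, took out no transplant and favors a lower SD in primary tumors. The SD was then higher in primary tumors for 57.0% of genes and at least 2 times as high for 12%, with a median ratio of 1.09. Leaving out transplant isotype 1, isotype 2 or anti-PD-1 2 gave 75.4%, 71.6% and 77.9%.

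Single genes were then tested. With limma on absolute deviations from the group mean, no gene was called more variable in primary tumors after Benjamini-Hochberg adjustment (0 of 14326, 0%) and none in transplants, although 1727 and 266 genes, respectively, had an unadjusted p under 0.05. On simulated data this test recovered no changed gene even at an SD ratio of 4, so its lack of calls says little. The same test on the log2 of the absolute deviations, a scale added after the first result was known, called 202 genes more variable in primary tumors (1.41%) and 7 in transplants (0.0489%). On that scale 1664 and 210 genes, respectively, had an unadjusted p under 0.05. In simulated data 3 of 26 calls on the log2 scale were false, so single calls are uncertain. Of the 202 genes, 24 averaged less than 1 CPM in the transplants. Leaving out 1 library at a time gave between 95 genes, without transplant isotype 2, and 277, without anti-PD-1 tumor 1. The counts in primary tumors and in transplants were 59 and 0 with medians as centers, and 351 and 29 with a variance stabilizing transform. The 202 called genes also spread more in irradiated primary tumors than in irradiated transplants in 176 of the 185 cases that could be looked up (95.1%, against 74.4% of all genes), and at least 2 times as much in 98 (53%, against 16.7%). In the irradiated tumors alone the test called 68 genes (0.467%), of which 13 were among the 202.

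The most variable genes of the primary tumors were ranked by SD with no test. The 100 genes with the largest SD had SDs of at least 2.34 log2 CPM, and 53 of them had an SD at least 2 times that in transplants, against 18.3% of all genes. The ranking by SD in primary tumors itself favors such a ratio. Conversely, 25 of these 100 genes were also among the 100 most variable genes of the transplants. All 85 that could be looked up in irradiated primary tumors had an SD above 1.15 there, which only the most variable 10% of genes exceeded.

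The largest differences between tumors were in sex-linked genes. Xist, the RNA that silences an X chromosome in female cells, read −3.75 to 8.54 (median 3.33) over the 16 tumors, and Ddx3y, an RNA helicase of the Y chromosome, −4.45 to 6.71 (median 2.58). The tumors formed 2 groups without overlap. Xist was at least 6.73 in 8 tumors and at most −0.07 in the other 8, and Ddx3y, Kdm5d, Eif2s3y and Uty were low in the first 8 and high in the second. All 8 transplants carried Y-linked RNA, with Ddx3y at 5.05 to 6.06, and transplants isotype 2 and anti-PD-1 2 also had Xist at 6.43 and 6.27, against at most −1.15 in the other 6. The absolute deviations of Uty were larger in primary tumors by 4.49 on the log2 scale (SE 0.573, adjusted p = 6.6e-11 by limma), the largest value among the called genes with an average log2 CPM of at least 2. Leaving out genes of chromosomes X and Y lowered the 202 calls to 186.

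Among autosomal genes the Hox clusters stood out. In a list of 17 Hox genes of the posterior body and limb, 15 were measured above the filter, all 15 had a higher SD in primary tumors and 12 had one at least 2 times as high, against 76.0% and 18.3% of all genes. Their median SD ratio was 4.34, against 1.32 over all genes, and 8 of the 15 were called on the log2 scale, against 1.41% of all genes. Restricting the list to the 12 genes averaging at least 1 CPM in each model left 12 with a higher SD, 9 at least 2 times higher and 5 called. In the irradiated tumors all 13 that could be looked up again had the higher SD in primary tumors, 9 of them at least 2 times as high. Of all 28 Hox genes measured, 28 had the higher SD, 24 at least 2 times as high, and 15 were called. Only 19 of them averaged at least 1 CPM in each model, and of these 19 had the higher SD, 15 at least 2 times as high, and 8 were called, while the others passed the filter through 1 model. Without the 4 tumors farthest from the mean, all 15 genes of the list still had the higher SD, 13 at least 2 times as high, with a median ratio of 3.32 against 1.09 over all genes. The Hox genes of a cluster overlap each other and their antisense transcripts, and the strand setting of the counting is not given in the sources used here, so neighboring Hox genes may share reads.

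Hoxc11 (chromosome 15, 102954427 to 102957708 on the plus strand, GRCm38), which helps to lay out the hind limb and lumbosacral trunk, read −4.45 to 5.27 (median 3.75) in primary tumors and 2.04 to 2.85 (median 2.62) in transplants. No read was counted in isotype tumor 4, 4 more tumors lay between −1.94 and 0.04 (anti-PD-1 6, 5 and 8 and isotype 8), and the other 11 lay at or above 2.36, so that the transplants sat at the lower end of the high tumors and, in part, just below them. Its SD was 2.88 against 0.274, and its deviations were larger in primary tumors by 3.09 on the log2 scale (SE 0.551, adjusted p = 4.43e-05 by limma). In irradiated tumors its SD was 1.23 against 0.201.

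Hoxc10 lies just downstream (chromosome 15, 102966796 to 102971893, plus strand) and read −2.33 to 5.45 (median 4.35), against 2.82 to 4.05 (median 3.27) in transplants. It was lowest in the same 5 tumors: isotype 4 (−2.33), anti-PD-1 6 (−1.45), isotype 8 (0.37) and anti-PD-1 5 (0.57) and anti-PD-1 8 (2.39). Its deviations were larger in primary tumors by 2.65 on the log2 scale (SE 0.551, adjusted p = 0.00181 by limma), whereas in irradiated tumors its SD of 1.24 against 0.589 was not called (adjusted p = 0.856 by limma). Hoxc9 was likewise lowest in isotype 4 (−0.60), anti-PD-1 5 (−0.44) and anti-PD-1 6 (−0.15), against 1.94 to 4.35 in the other 13 tumors.

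The 5′ end of the HoxC cluster was read in few tumors. Hoxc12 and Hoxc13, which act in the most posterior and distal parts of the body and in hair and nail, lay at 3.82 and 3.97 in isotype tumor 7, at 2.25 and 3.27 in anti-PD-1 tumor 3 and at 2.58 and 3.22 in anti-PD-1 tumor 7. Hoxc12 was at most −0.92 and Hoxc13 at most 0.27 in the other 13 tumors, and the transplants did not exceed −3.85 and −3.45.

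Hoxa11 was lowest in other tumors than Hoxc11 and Hoxc10. Hoxa11 (chromosome 6, 52242106 to 52245810, minus strand), needed for the middle segment of the limb, read −1.51 to 5.61 (median 4.11) in primary tumors and 5.21 to 5.86 (median 5.62) in transplants. The lowest tumors were anti-PD-1 4 (−1.51) and anti-PD-1 3 (−0.97), where Hoxc11 was high at 4.46 and 5.27, while isotype tumor 4, with no read of Hoxc11, had Hoxa11 at 5.33. The SD of 2.31 against 0.267 was called (difference on the log2 scale 2.63, SE 0.548, adjusted p = 0.00185 by limma), and in irradiated tumors the SD was 2.50 against 0.618. Hoxd10, a HoxD gene of the proximal and distal limb, read −4.45 to 3.26 (median −0.65) in primary tumors and 3.18 to 4.18 (median 3.77) in transplants, and only isotype tumor 4 reached the range of the transplants. Hoxa13, which specifies the hand and foot, was above 1 CPM in 2 primary tumors, anti-PD-1 7 (2.80) and isotype 8 (0.21), and lay between 0.15 and 1.14 in all 8 transplants.

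Other patterning genes differed as sharply. Tbx4, which marks the hind limb, read −2.47 to 4.08 (median −0.16) in primary tumors and 0.10 to 1.56 (median 0.47) in transplants. Its SD of 2.24 against 0.435 was called in the unirradiated tumors (adjusted p = 4.43e-05 by limma) and also in the irradiated ones, where it was 1.79 against 0.291 (adjusted p = 0.0388 by limma). Irx1 and Irx2, neighboring Iroquois homeobox genes on chromosome 13 that pattern limb and nervous system, were mostly high or mostly absent. Irx2 was at least 2.68 in 11 tumors and at most −0.998 in isotype 4, isotype 7 and anti-PD-1 4, 5 and 6, and the transplants ran from −3.11 to 1.05 (median −2.04).

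By contrast, some limb genes were read in every tumor. Pitx1, which directs hind limb identity, lay at 3.16 to 6.28 and Tbx15, of the T-box family, at 6.12 to 7.42 in all 16 tumors. Their SDs were 0.852 and 0.379, against a median of 0.372 over all genes, so Tbx15 was steady and Pitx1 was not. The transplants lay at 5.45 to 6.54 for Pitx1 and, below every primary tumor, at 4.91 to 5.58 for Tbx15. Across 58 homeobox and T-box genes measured, 55 had the higher SD in primary tumors (against 76.0% of all genes), 43 at least 2 times as high (18.3%), and 22 were called (1.41%). Their median ratio was 2.92. Of the 44 that averaged at least 1 CPM in each model, 42 had the higher SD, 30 at least 2 times as high, and 13 were called, against 17.7% of all such genes at 2 times or more. This wider list was drawn up after values had been seen.

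**Figure D2:**
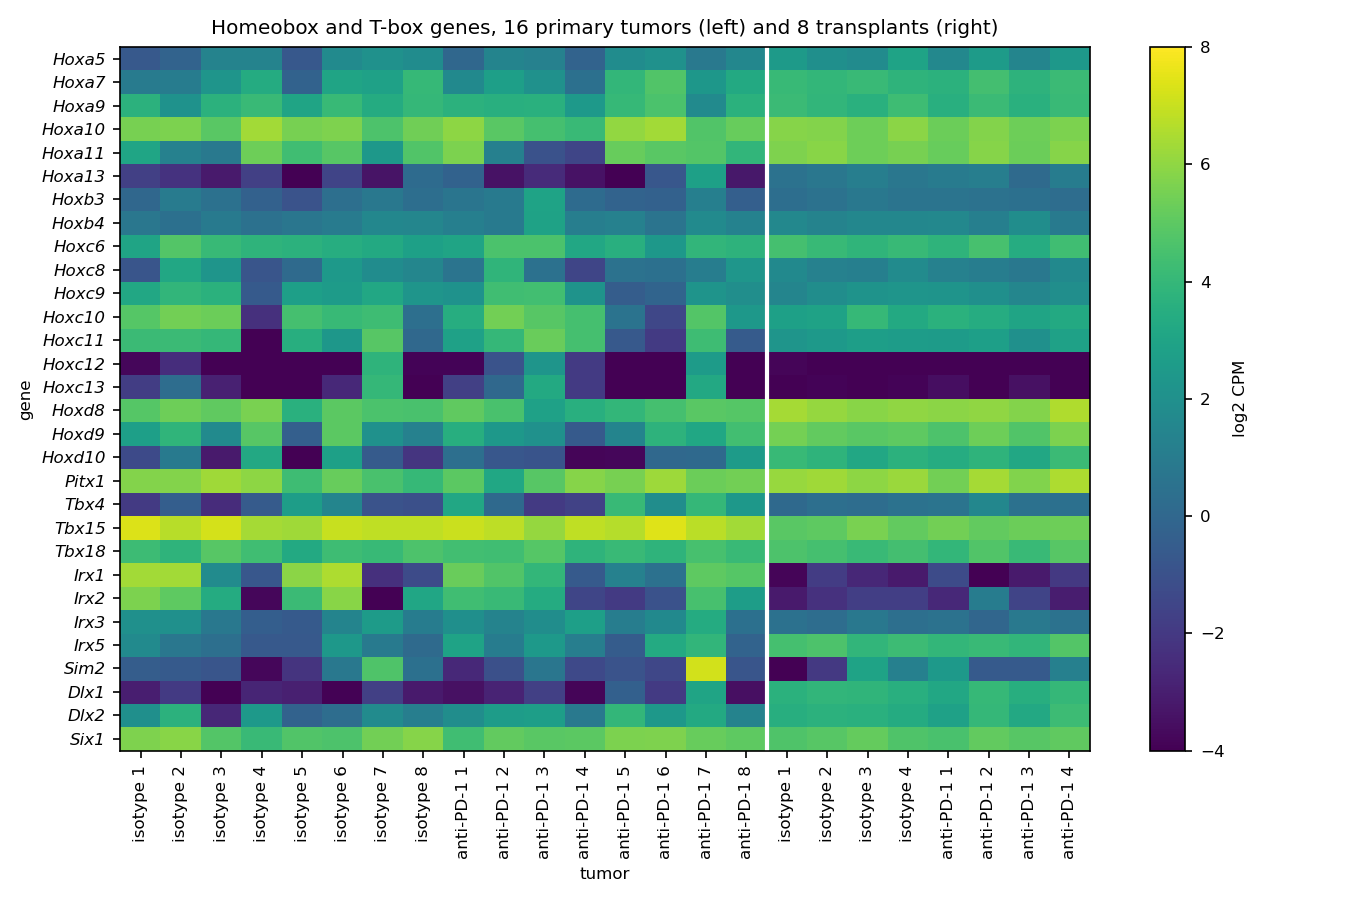
Level of 30 homeobox and T-box genes (rows, log2 CPM by color from −4 to 8) in the 16 unirradiated primary tumors and the 8 transplants (columns); the genes were chosen after their values were seen. Primary tumors switch single genes on or off in different combinations, such as Hoxc12 and Hoxc13 in isotype 7 and anti-PD-1 3 and 7, whereas the transplants show nearly 1 pattern.

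Outside the patterning and Y-linked genes, the calls with the largest excess of spread among genes with an average log2 CPM of at least 2 were Tfpi, Dio2 and Cdh10. Dio2, the deiodinase that makes active thyroid hormone, read 0.93 to 8.74 (median 3.53) in primary tumors and 5.03 to 5.67 (median 5.28) in transplants. It exceeded every transplant in anti-PD-1 4 (8.74), anti-PD-1 7 (7.67) and isotype 7 (6.36), and the other 13 tumors lay below all of them. The difference in deviations was 2.75 on the log2 scale (SE 0.507, adjusted p = 9.49e-05 by limma). Tfpi, an inhibitor of the tissue factor pathway of coagulation, read 2.53 to 6.32 (median 5.18) and fell into 7 tumors at or below 3.69 and 9 at or above 5.04, with transplants at 4.85 to 5.42 (median 5.12). Its deviations differed by 2.91 (SE 0.534, adjusted p = 8.87e-05 by limma). Cdh10, a cadherin of the nervous system, was at least 1.30 in 10 tumors and at most −1.62 in 6, and at most −3.27 in every transplant, so it passed the filter through the primary tumors and its small spread in transplants came with its low level.

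The 7 genes that spread more in transplants included Nos2, the inducible nitric oxide synthase of activated macrophages. It read 1.26 to 3.22 (median 2.27) in primary tumors and 1.57 to 4.65 (median 2.76) in transplants, with SDs of 0.540 and 1.19 (adjusted p = 0.0404 by limma). The direction was the other way in irradiated tumors, at 1.23 and 0.662.

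Several genes that normally serve germ cells were read in 1 or a few tumors and hardly at all in the rest. 3 of them with an annotated promoter are shown because each was high in a single tumor and low in all 8 transplants: Tdrd1 and Syce1, both in anti-PD-1 tumor 8, and Slc25a31, in isotype tumor 5. Tdrd1 is a Tudor protein of the piRNA pathway of male germ cells, Syce1 a part of the synaptonemal complex of meiosis, and Slc25a31 the ADP/ATP carrier of sperm. The sequences run from 250 bases before to 50 bases after the start of the RefSeq gene (GRCm38.p6), 5′ to 3′ on the strand of the gene, with each CG dinucleotide in capitals.
Tdrd1: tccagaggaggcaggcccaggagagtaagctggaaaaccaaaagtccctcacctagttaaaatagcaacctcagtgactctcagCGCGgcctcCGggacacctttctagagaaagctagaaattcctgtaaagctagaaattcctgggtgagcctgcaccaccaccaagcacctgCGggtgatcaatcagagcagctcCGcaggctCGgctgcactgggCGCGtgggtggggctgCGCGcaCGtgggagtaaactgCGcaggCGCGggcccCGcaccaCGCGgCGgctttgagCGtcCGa
Slc25a31: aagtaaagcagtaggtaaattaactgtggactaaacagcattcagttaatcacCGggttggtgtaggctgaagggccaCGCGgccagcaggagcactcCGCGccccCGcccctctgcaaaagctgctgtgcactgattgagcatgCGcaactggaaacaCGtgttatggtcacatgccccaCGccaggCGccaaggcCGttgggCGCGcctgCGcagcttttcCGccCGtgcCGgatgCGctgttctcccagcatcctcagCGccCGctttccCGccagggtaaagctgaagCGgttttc
Syce1: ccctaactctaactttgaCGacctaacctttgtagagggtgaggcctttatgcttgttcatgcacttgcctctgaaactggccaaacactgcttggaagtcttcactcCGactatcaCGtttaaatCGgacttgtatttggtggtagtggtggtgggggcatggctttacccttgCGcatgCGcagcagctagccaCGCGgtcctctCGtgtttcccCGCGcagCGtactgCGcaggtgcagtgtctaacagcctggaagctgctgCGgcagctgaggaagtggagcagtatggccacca

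Tdrd1 (chr19:56825959-56826258, plus strand) holds 20 CG dinucleotides, Slc25a31 (chr3:40708621-40708920, plus strand) 22 and Syce1 (chr7:140787805-140788104, minus strand) 14. Of 27025 promoters of the same length, with a median of 7, the shares with at least as many were 26.8%, 23.3% and 36.9%. The E-box CACGTG, which reads the same on both strands, occurs once each in the Tdrd1 and Slc25a31 windows, not in that of Syce1, and in 7.24% of all promoters. Of the 15 germline genes measured above the filter, 11 matched a promoter, with 5 to 41 CG dinucleotides (median 20), and 5 of these hold CACGTG. Methylation was not measured in the libraries analysed here.

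Syce1 read 4.36 in anti-PD-1 tumor 8 and at most −0.63 in the other 15 tumors, with transplants at or below 0.27. Tdrd1 read 3.88 in that tumor and at most 0.91 elsewhere, and did not exceed −3.56 in the transplants. Slc25a31 read 5.78 in isotype tumor 5, 2.40 in isotype tumor 2, and at most −0.66 in the transplants.

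Other germline genes marked other tumors. Rhox5, a homeobox gene of the testis on the X chromosome, was at 5.49 in isotype tumor 8 and at most 0.53 in the rest, with transplants at or below −2.32. Xlr, an X-linked gene related to meiotic chromosome proteins, was at 4.99 in anti-PD-1 tumor 6 and at most 0.61 in the rest, with transplants at −0.69 to 1.23. Tex11, needed for meiotic recombination, was at 5.2 in anti-PD-1 tumor 1 and 3.84 in anti-PD-1 tumor 2, and at most −0.38 in the other 14, with transplants at or below 0. Each of these genes therefore separated 1 or 2 tumors from all others and from the transplants.

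Morc1, which silences transposons in male germ cells (chromosome 16, 48431237 to 48630900, plus strand), was shared by more tumors. It read −4.45 to 4.79 (median −2.32) in primary tumors and −4.45 to −2.46 (median −4.16) in transplants. Isotype tumors 1 and 5 and anti-PD-1 tumors 1, 2 and 4 lay at 3.25 to 4.79, the other 11 at or below −1.67, and nothing in between. Tcfl5, a transcription factor of spermatocytes, behaved the opposite way, with 13 tumors at or above 0.45 and isotype 4, anti-PD-1 4 and anti-PD-1 6 at or below −3.33, next to transplants at −4.45 to −1.44. Of the 15 germline genes measured, 13 had a higher SD in primary tumors, 8 at least 2 times as high, and 1, Tdrd1, was called, against 76.0%, 18.3% and 1.41% of all genes. Only 3 averaged at least 1 CPM in each model, of which 3 had the higher SD, 2 at least 2 times as high, and none was called. The others passed the filter through the tumors in which they were high, so the counts over all 15 say little. The list was drawn up after values had been seen.

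Imprinted neighbors on chromosome 7 were lowest together in 1 tumor. Ndn, which encodes necdin, a growth-restraining protein expressed from the paternal copy (chromosome 7, 62346569 to 62350262, plus strand), read 0.14 in isotype tumor 7 and 4.89 to 7.87 in the other 15, with transplants at 1.47 to 3.70. Its paternally expressed neighbors Peg12 and Mkrn3 were also lowest in isotype tumor 7, at −1.08 against 2.83 to 4.55, and at −2.18 against −0.84 to 1.62. For Peg12 the transplants lay at 3.01 to 3.74, within the range of the other tumors.

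Among imprinted growth genes all 14 measured had a higher SD in primary tumors, 6 of them at least 2 times as high (76.0% and 18.3% of all genes), and none was called on the log2 scale. In irradiated tumors 11 of 14 had the higher SD and 3 one at least 2 times as high (74.4% and 16.7% of all genes). Dlk1, a fetal growth regulator, ran from 4.61 in anti-PD-1 tumor 3 to 11.32 in anti-PD-1 tumor 5 (median 7.97), against 0.82 to 5.56 (median 2.80) in transplants. Meg3, the maternally expressed RNA of the same domain, ran from 5.16 to 8.64, and above every transplant (2.47 to 4.45) in all 16 tumors. Igf2, the fetal growth factor, was highest at 6.12 in anti-PD-1 tumor 6, where the next tumor, anti-PD-1 8, read 4.09 and the transplants −0.73 to 2.46.

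Genes with 1 tumor at least 2 log2 CPM above the next were counted in each set. There were 68 in the primary tumors, in 15 of 16 tumors, from 0 in anti-PD-1 tumor 1 to 14 in anti-PD-1 tumor 4, with a median of 3.5 per tumor. The 8 transplants had 18 (median 0.5, highest 7 in transplant anti-PD-1 2). Groups of 16 and of 8 do not give such gaps equally often, and no test was made. The contrast did not recur in the irradiated tumors, where the median was 2.5 per library in primary tumors, 76 such genes coming from 1 tumor alone, and 3.5 in the transplants, which had 58 in all.

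Anti-PD-1 tumor 4 was marked by a developmental gene and by genes of neutrophils. Mab21l2, a gene of eye and body wall development, read 6.35 there and at most 0.61 in the other 15 tumors. S100a9 and S100a8, the calprotectin subunits of neutrophils, read 7.20 and 6.54 with the next tumors at 4.19 and 3.89. Mmp3, stromelysin, read 11.47 with the next at 8.16, and Cxcr2, a chemokine receptor of neutrophils, 5.31 with the next at 3.29. Anti-PD-1 tumor 7 stood out by Sim2, a midline transcription factor (7.16, with isotype 7 at 4.69 and the others at most 0.79), and Dlx1, a distal-less homeobox gene (3.01, next −0.34, transplants 3.20 to 4.02).

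Isotype tumor 5 was marked by long non-coding host genes of small nucleolar RNAs, whose spliced transcripts are often removed by nonsense-mediated decay. Snhg12 read 7.45 there with the next tumor at 4.55, Zfas1 8.57 with the next at 6.43, and Snhg5 7.02 with the next at 4.90. The mean level of 14 such host genes was 5.01 in that tumor and 3.75 in the median tumor, and the transplants reached 4.65. Isotype tumor 1 had Mmp9, a gelatinase of osteoclasts and myeloid cells, at 10.93 (next 8.92) and Ocstamp, needed for osteoclast fusion, at 5.25 (next 2.79).

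The reverse, 1 tumor at least 2 log2 CPM below all others, was found for 79 genes in 10 primary tumors, 19 of them in isotype tumor 4. In the transplants there were 264, of which 251 came from transplant isotype 1. Serpinf1, an anti-angiogenic secreted protein, read 5.27 in anti-PD-1 tumor 6 and at least 8.41 in the other 15. Cilp, a cartilage matrix protein, read 3.62 in anti-PD-1 tumor 4 and at least 6.89 elsewhere, and Lhx8, a LIM homeobox gene, −1.39 in isotype tumor 3 and at least 1.13 elsewhere.

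**Figure D3:**
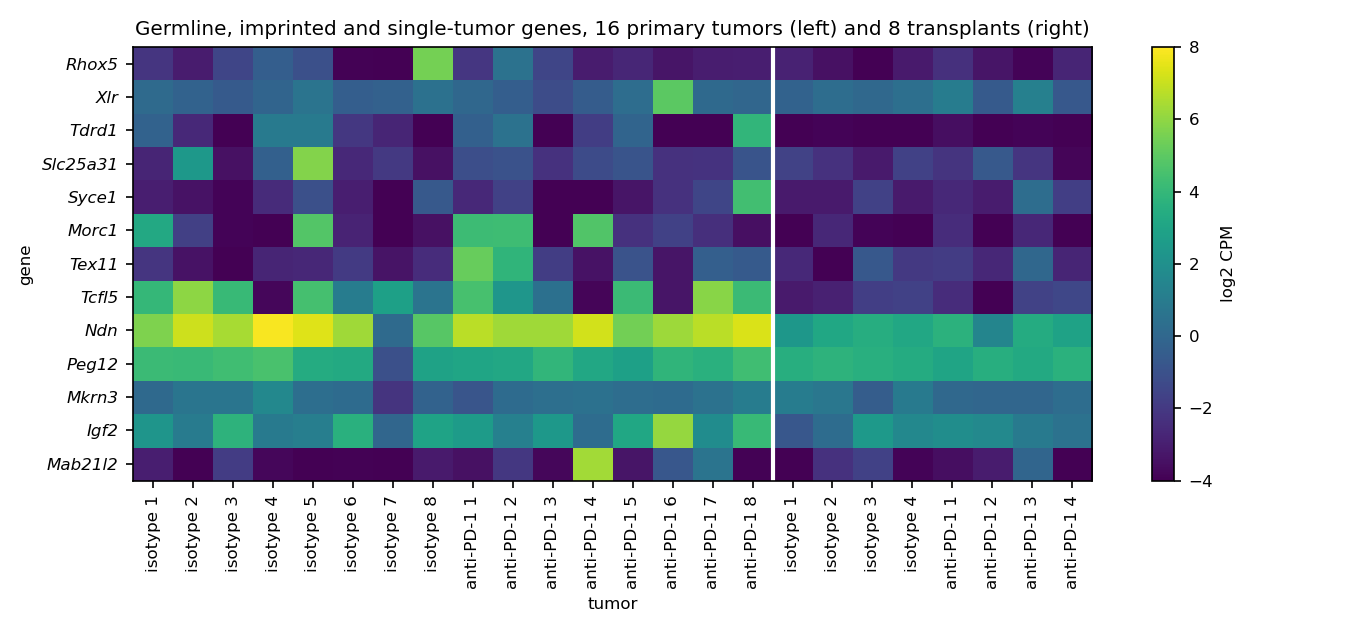
Level (log2 CPM) of 13 germline, imprinted and developmental genes, chosen after their values were seen, in each of the 16 primary tumors and 8 transplants. Rhox5, Xlr, Tdrd1, Syce1 and Mab21l2 are each high in 1 primary tumor and Morc1 in 5, whereas Ndn, Peg12 and Mkrn3 are low in isotype tumor 7 alone among the primary tumors.

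Co-varying programs were then sought among the 500 genes with the largest SD over the primary tumors. The last gene inside had an SD of 1.605 and the first outside 1.599. Average-linkage clustering by 1 minus Pearson r, cut at 0.5, gave 11 clusters of at least 10 genes, which held 299 of the 500 genes. The remaining 201 genes fell into 64 smaller clusters. The clusters were built from these values, so their r in the same tumors is a description, and the r in irradiated primary tumors and in transplants was taken over libraries not used to build them. The genes were also picked for a large SD in these tumors. That choice favors a larger SD of a program mean in primary tumors than in transplants, so the SDs of program means are descriptions too. As a baseline, the mean r between all pairs of the 500 genes was 0.113 in unirradiated primary tumors, 0.167 in irradiated ones (449 genes) and 0.148 in transplants. The first 4 principal components held 30.7%, 10.9%, 10.2% and 8.55% of the variance.

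The largest program was muscle. Its 146 genes held all 15 of the skeletal muscle fiber list and were led by Alpk3, Cacna1s, Tcap and Myom1, genes of the sarcomere and of excitation. Program means ran from −1.73 in isotype tumor 4 to 4.30 in isotype tumor 6 (median 2.24), with a mean pairwise r of 0.846. It was as coherent in irradiated primary tumors (r = 0.889) and in transplants (0.921), and the transplants covered an even wider range, from −1.07 to 5.76, with an SD of 2.13 against 1.92. Within the muscle fiber list 4 of 15 genes had the higher SD in primary tumors, against 76.0% of all genes, whereas all 15 did in the irradiated tumors. The order rested on transplant isotype 1, whose list mean was 2.15 against 6.89 or more in the other 7: without it 15 of 15 had the higher SD in primary tumors, 6 of them at least 2 times as high, and without transplant isotype 2 or anti-PD-1 2 only 1 of 15 did. Removing the muscle signal by regression raised the difference in distance between the models from 17.7 to 22.7 (exact permutation test, p = 0.000401), so the excess was larger without it. Adipocyte genes (1 of 7 with the higher SD) and red blood cell genes (0 of 6) also varied more in the transplants, but 6 of 7 adipocyte genes varied more in primary tumors without transplant isotype 1 and 3 of 6 red blood cell genes without transplant anti-PD-1 2.

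A mast cell program of 20 genes had 6 members of the mast cell list and was led by Ms4a2, Cd200r3, Tpsab1 and Cpa3, which encode an IgE receptor chain, a surface receptor, a tryptase and a granule carboxypeptidase. Its mean ran from −0.58 in anti-PD-1 tumor 3 to 4.05 in isotype tumor 4 (median 2.53) and from 0.67 to 2.43 in transplants, with r of 0.737 in the primary tumors, 0.409 in irradiated ones and 0.168 in transplants. Cpa3 itself read 2.00 to 6.77 (median 4.87) in primary tumors and 2.12 to 6.00 (median 3.41) in transplants, which overlap over nearly the whole range. All 7 mast cell genes had the higher SD in primary tumors, none of them at least 2 times as high, against 76.0% and 18.3% of all genes.

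A neutrophil and metalloproteinase program of 22 genes included S100a8, S100a9, Cxcr2, Mmp3 and Mmp10. It was led by 1 tumor, anti-PD-1 4, at 5.37 against a median of 1.09, which alone supplied 37.0% of the sum of squares. Its SD was 1.66 in primary tumors and 0.590 in transplants, and r was 0.586, 0.394 in irradiated primary tumors and 0.154 in transplants.

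Another 2 programs joined patterning genes with the tumors named above. A program of 13 genes with Hoxc12, Hoxc13, Sim2, Dio2, Chrdl1, a BMP antagonist, and Peg3, an imprinted zinc finger gene, was highest in anti-PD-1 tumor 7 (5.15) and isotype tumor 7 (4.71) and lowest in isotype tumor 4 (−1.16). Its mean had an SD of 1.74 in primary tumors and 0.162 in transplants, the latter all between 1.49 and 1.90. The single genes were less even than their mean, with SDs in transplants from 0.186 (Dio2) to 2.46 (Sim2). However, its genes did not move together elsewhere: the mean r of 0.581 fell to 0.080 in irradiated primary tumors and −0.031 in transplants. The other, of 14 genes with Prox1, Mmrn1 and Ccl21a, which mark lymphatic endothelium, and with Hoxa13, was highest in anti-PD-1 tumor 7 (3.93) and lowest in isotype tumor 5 (−2.70). It kept an r of 0.459 in irradiated primary tumors and 0.335 in transplants.

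Prox1, the master regulator of lymphatic fate, read −4.45 to 4.64 (median 0.95) in primary tumors and −1.62 to 0.66 (median −0.67) in transplants. Ccl21a, the lymphatic chemokine that guides dendritic cells, read −0.06 to 8.73 (median 4.45), against −0.63 to 3.38 (median 1.94). Both were highest in anti-PD-1 tumor 7, and 9 tumors lay above all transplants for Prox1. Ccl21a has near-identical copies in the mouse genome, so its counts are uncertain.

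A program of 13 genes held Comp, Chad, Col2a1 and Cilp2 of the cartilage matrix, but only 3 of its genes were on the cartilage and bone list. It was highest in anti-PD-1 tumor 5 (4.73) and lowest in isotype tumor 5 (−0.73). Its r of 0.605 was only 0.268 in irradiated primary tumors and 0.317 in transplants. Col2a1, the main collagen of cartilage, reached 6.84 in isotype tumor 8 and 6.21 in anti-PD-1 tumor 5 (median 1.31). It also reached 6.79 and 5.48 in transplants anti-PD-1 3 and isotype 3, with a transplant median of −1.88, and its SD was larger in the transplants, at 3.96 against 2.42. A 12-gene program led by Spon2, Rarres2 and Kera, a keratan sulfate proteoglycan of cornea and tendon, was highest in isotype tumor 7 (5.01), with an SD of 1.69 in primary tumors and 0.311 in transplants, but its r of 0.669 was only 0.234 in irradiated primary tumors. Further programs of 17 and 15 genes, led by C1qtnf3, Lgr5 and Ltbp2 and by Cdh10, Sox11 and Tchh, likewise kept r of only 0.134 and 0.224 in irradiated primary tumors.

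A program of 15 genes held plasma proteins made by the liver, among them albumin (Alb), transthyretin (Ttr) and apolipoprotein A1 (Apoa1), and had the largest SD of all programs at 2.33. Alb read −3.78 to 6.99 (median −0.46) in primary tumors and −3.82 to 4.47 (median 2.00) in transplants. The list mean of 10 liver genes was 0.62 to 3.64 in isotype tumors 1, 2, 4 and 7 and anti-PD-1 tumors 1 and 8 and at most −1.42 in the other 10. The transplants ranged from −2.93 to 1.73, and in the irradiated tumors only 1 of 10 liver genes had the higher SD in primary tumors. Matched liver of the mice was harvested and extracted in the same study according to the labels, and its part in these values was not tested. The last program, of 12 genes, joined Y-linked genes with immunoglobulin variable segments and was highest in anti-PD-1 tumor 8.

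**Figure D4:**
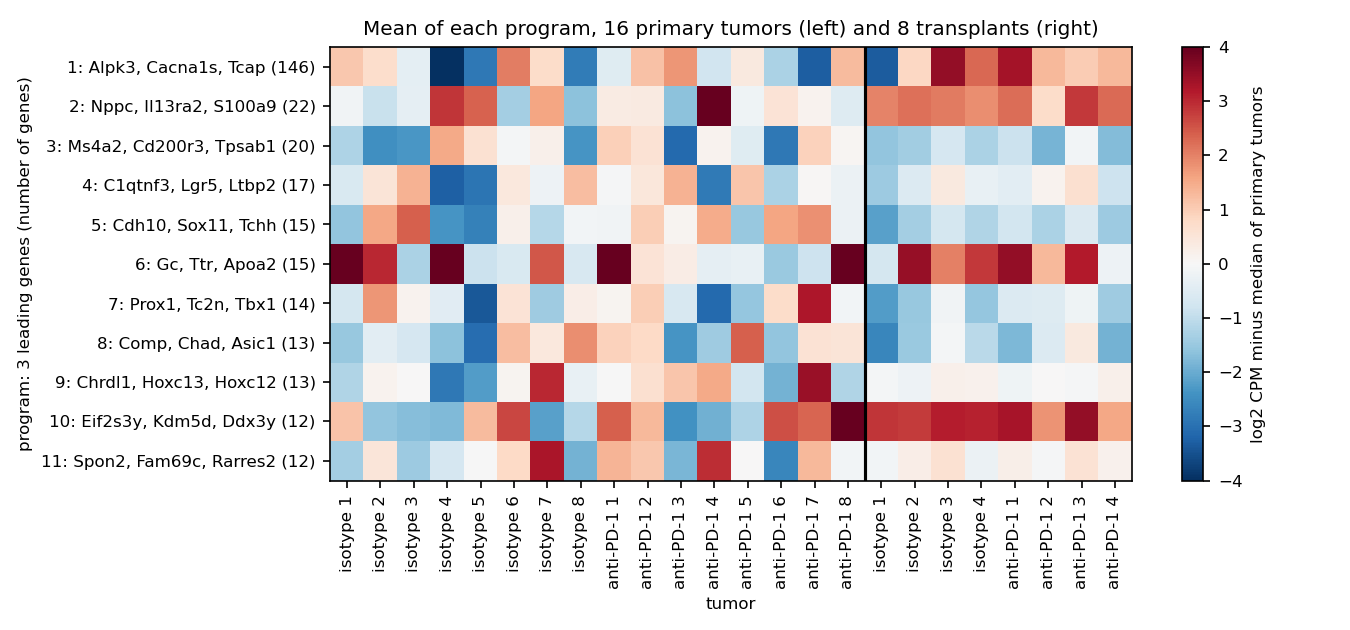
Mean level of each of the 11 programs minus its median over the primary tumors (rows, log2 CPM by color) in 16 primary tumors and 8 transplants (columns). The muscle and liver programs vary in both models, while the mean of the program with Hoxc12, Hoxc13 and Dio2 is high in anti-PD-1 7 and isotype 7 and even across the transplants. All program genes were picked for a large SD in these primary tumors.

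Granzymes c, d, e, f and g, serine proteases of cytotoxic lymphocytes encoded side by side on chromosome 14, varied as a block. Gzmd read −3.56 to 7.30 (median 0.76) in primary tumors and 1.82 to 5.75 (median 2.94) in transplants. The cluster mean was 6.99 in isotype tumor 4, 5.65 in isotype 7, 4.30 in anti-PD-1 1, 3.97 in anti-PD-1 4 and 4.46 in anti-PD-1 7, and between −2.44 and 1.28 in the other 11. Transplants lay between 2.17 and 5.5, and 6 of the 8 fell in the gap between the high and the low tumors. All 5 genes measured had the higher SD in primary tumors, 4 of them at least 2 times as high, and 1, Gzme, was called, against 76.0%, 18.3% and 1.41% of all genes. In irradiated tumors 5 of 5 had the higher SD and only 1 an SD at least 2 times as high, against 74.4% and 16.7% of all genes. The genes are near-identical, so reads may have been assigned to the wrong member. The mean of the T cell list in those 5 tumors was 2.82, 0.87, 3.84, 1.77 and 3.20, against 0.63 to 3.13 in the other 11.

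Few genes of the other immune lists had an SD at least 2 times as high in unirradiated primary tumors as in transplants, but many did in the irradiated tumors. The T cell list (Cd3e, Cd8a, Lck and others) ran from 0.63 in isotype tumor 1 to 3.84 in anti-PD-1 tumor 1 (median 2.07) and from 2.49 to 4.67 in transplants (median 3.55). It lay at 0.63 to 2.82 in the 8 isotype tumors and 1.77 to 3.84 in the 8 anti-PD-1 tumors, ranges that overlap but differ at both ends. The part of the antibody in this was not tested. Of its 12 genes 11 had the higher SD in primary tumors but only 1 at least 2 times as high, against 76.0% and 18.3% of all genes. In irradiated tumors 12 of 12 had the higher SD and 8 one at least 2 times as high, and so did 8 of 10 cytotoxic, 7 of 7 MHC class II and 6 of 9 MHC class I genes, against 16.7% of all genes, where in the unirradiated tumors none of these 3 lists had a gene at 2 times or more. Macrophage genes (Csf1r, C1qa, Mrc1 and others) ran from 6.58 to 7.87, and 5 of 12 had the higher SD in primary tumors, against 76.0% of all genes. The interferon response list ran from 4.10 in isotype tumor 1 to 7.44 in isotype tumor 4. Of its 14 genes 12 were more spread in primary tumors and 4 at least 2 times, against 76.0% and 18.3% of all genes. The median ratio was 1.63 against 1.32 over all genes.

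Genes of the stroma differed in how far they spread. The mean of the collagen and matrix list ran from 9.47 to 11.24 in primary tumors and 9.02 to 9.90 in transplants. Of its 15 genes 14 had the higher SD in primary tumors, 4 of them at least 2 times as high, and 2, Dcn and Fbn1, were called, against 76.0%, 18.3% and 1.41% of all genes. In irradiated tumors only 6 of the 15 had the higher SD, against 74.4% of all genes. In the unirradiated ones 10 of the 15 (66.7%) did without the 4 tumors farthest from the mean, against 57.0% of all genes. Dcn, decorin, which binds collagen fibrils and growth factors, read 8.24 in isotype tumor 1 to 10.70 in anti-PD-1 tumor 1 (median 9.66), against 8.65 to 9.11 in transplants, with SDs of 0.725 and 0.152 (adjusted p = 0.0335 by limma), and it was called again in irradiated tumors, at 0.884 against 0.129 (adjusted p = 0.0172 by limma). Of 10 smooth muscle and myofibroblast genes 8 had the higher SD in primary tumors, close to the share of all genes, and 4 had one at least 2 times as high. Acta2, smooth muscle actin, ran from 5.47 in anti-PD-1 tumor 4 and 5.99 in isotype tumor 4 to 9.93 in isotype tumor 1 (median 8.50), and 14 tumors lay above every transplant (6.39 to 7.06). Its SDs were 1.30 and 0.241 (adjusted p = 0.00724 by limma). Endothelial genes had the higher SD in 10 of 10 cases, 4 at least 2 times, against 76.0% and 18.3% of all genes, and none was called. Cdh5, the cadherin of endothelial junctions, lay at 6.17 to 8.42 against 5.92 to 6.89 in transplants.

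Markers of other lineages were uneven across the tumors. Krt8, a keratin of simple epithelia, read −1.51 to 7.57 (median 1.53) in primary tumors and 5.24 to 8.19 (median 5.86) in transplants. Only anti-PD-1 tumor 2 (7.57), isotype tumor 3 (6.12) and anti-PD-1 tumor 8 (5.59) reached the range of the transplants, and its SDs of 2.80 and 0.955 were not past the threshold (adjusted p = 0.0601 by limma). The keratinocyte genes Krt5, Krt14, Krt1, Lor and Trp63 were below the filter. Stmn2, a microtubule regulator of neurons, read 1.91 in isotype tumor 3 to 8.07 in isotype tumor 7 (median 5.70), above every transplant (0.82 to 1.71) in all 16 tumors. Its SDs of 1.86 and 0.274 were called (adjusted p = 0.00116 by limma), alone among the 8 neuronal genes measured, and again in irradiated tumors, at 2.28 against 0.600 (adjusted p = 0.0461 by limma). Nqo1, a quinone reductase induced by NRF2 and the aryl hydrocarbon receptor, which binds compounds such as MCA, was below every transplant (6.97 to 7.56) in all 16 tumors, at 1.96 to 4.52 (median 3.10), and its SDs of 0.703 and 0.206 were called (adjusted p = 0.0474 by limma).

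Cell cycle genes varied in level about as much as other genes, with a median SD of 0.397 in primary tumors against 0.372 over all genes. The mean of 14 genes, Mki67 and Top2a among them, ran from 5.89 in isotype tumor 7 to 7.28 in anti-PD-1 tumor 6, with an SD of 0.326 in primary tumors and 0.142 in transplants. All 14 had the higher SD in primary tumors, 4 of them at least 2 times, against 76.0% and 18.3% of all genes. Without the 4 tumors farthest from the mean none reached 2 times, against 12% of all genes. In irradiated tumors 9 of 14 had the higher SD and none one at least 2 times as high. The list mean of 13 p53 targets varied little in either model, at 4.48 to 5.03 in primary tumors (SD 0.139) and 4.14 to 4.63 in transplants (SD 0.162). Of 32 oncogenes often gained in tumors 22 had the higher SD in primary tumors, 5 at least 2 times, and of 19 tumor suppressors 15, with 4 at least 2 times. Their shares were close to the background of 76.0% and 18.3%.

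None of the 32 oncogenes was called. Cdk4, the cyclin D kinase, read 7.70 to 9.38 (median 8.14) in primary tumors, highest in anti-PD-1 tumor 6, against 7.73 to 8.12 (median 7.92) in transplants, with SDs of 0.454 and 0.142 (adjusted p = 0.147 by limma). Mycn was highest in the same tumor, at 3.77 with a median of 1.93. The tumor suppressor Cdkn2a, the locus of p16 and p19Arf, read 9.21 to 10.57 in all 16 tumors, above every transplant (7.62 to 8.69).

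In all, 18 pairs of lists were compared across the 16 primary tumors, with p-values from 100000 permutations, two-sided, adjusted over the 18 pairs. T cell genes rose with MHC class II genes (r = 0.873, permutation adjusted p = 0.00018, rho = 0.885, adjusted p = 0.00036). Without the 2 tumors farthest from the median T cell level r was 0.805, within the isotype tumors 0.882 and within the anti-PD-1 tumors 0.756, and in irradiated primary tumors 0.924. For T cell with macrophage genes no relation was detected (r = 0.032, rho = 0.059, permutation adjusted p = 0.904 and 0.857), where irradiated primary tumors gave r = 0.710 and transplants 0.593.

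Skeletal muscle fiber genes rose with embryonic and regenerating muscle genes (r = 0.863, rho = 0.747, permutation adjusted p = 0.00063 and 0.0106, r = 0.757 without the 2 farthest tumors) and with adipocyte genes (r = 0.679, rho = 0.694, permutation adjusted p = 0.0141 and 0.0179, r = 0.803 without them). These lists are not separate measures. The muscle program held 7 of the 11 embryonic and regenerating muscle genes measured and 1 adipocyte gene, Car3, so part of both relations is built in. Interferon response genes rose with MHC class I genes (r = 0.759, rho = 0.727, permutation adjusted p = 0.00348 and 0.0106). Without the 2 farthest tumors r was 0.626 and no longer past the threshold (permutation adjusted p = 0.0755), and in irradiated primary tumors r was 0.599 but rho 0.0647. Within the isotype and anti-PD-1 tumors r of these 3 pairs was 0.863 and 0.880, 0.517 and 0.880, and 0.793 and 0.669.

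Neutrophil genes rose with hypoxia genes (r = 0.739, rho = 0.600, permutation adjusted p = 0.00405 and 0.049), but r was 0.471 without the 2 farthest tumors, among them anti-PD-1 tumor 4. It was 0.558 in irradiated primary tumors and −0.109 in transplants. The relations of T cell with cytotoxic genes (r = 0.584, rho = 0.603, permutation adjusted p = 0.0402 and 0.049) and of collagen with smooth muscle genes (r = 0.628, rho = 0.579, permutation adjusted p = 0.0289 and 0.0541), lists that share 1 gene, fell to r of 0.395 and 0.482 without the 2 farthest tumors, and none of the 3 pairs was then past the threshold. In irradiated primary tumors and in transplants, r was 0.797 and 0.922 for T cell with cytotoxic genes. For collagen with smooth muscle genes it was 0.354 and −0.185. The other 11 pairs were not past the threshold.

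Finally, genes were ordered along the chromosomes. For each tumor and autosome the median deviation of its genes from the median primary tumor was taken, on the log2 scale. Of 304 such values in the primary tumors 14, in 8 tumors, were at least 0.15 in size, 9 higher and 5 lower, and they ran from −0.43 to 0.45. In the transplants none of 152 was, the range being −0.043 to 0.086, and the SD of all values was 0.070 against 0.019.

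Chromosome 8, with 764 genes, was lower by a median of −0.43 in isotype tumor 2, where 18.3% of its genes lay above the median tumor, and higher by 0.38 in isotype tumor 8, where 82.7% did. Anti-PD-1 tumor 6 was higher on chromosomes 13 (0.45), 3 (0.32) and 8 (0.32). Chromosome 15 was higher by 0.26 in anti-PD-1 tumor 2 and 0.27 in anti-PD-1 tumor 7. Copy number of DNA was not analysed here.

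**Figure D5:**
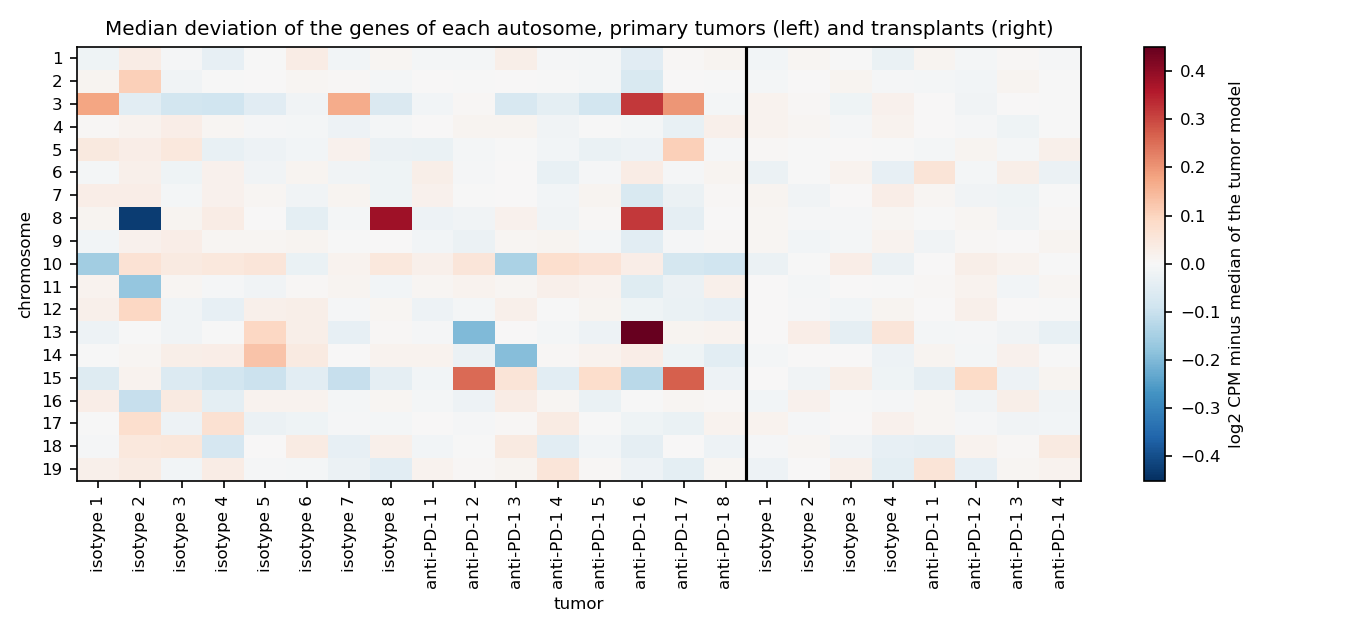
Median deviation of the genes of each autosome (rows) from the median of its model in each primary tumor and transplant (columns), as a log2 difference by color. Single autosomes stand out in 8 primary tumors, such as chromosome 8 in isotype 2 (−0.43) and isotype 8 (0.38) and chromosome 13 in anti-PD-1 6 (0.45), and none reaches 0.15 in the transplants.

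Within chromosomes, runs of 15 neighboring genes with a median deviation of at least 0.8 in size were joined into regions (coordinates in GRCm38). There were 74 in the primary tumors, 31 higher and 43 lower, in 15 of 16 tumors, and 11 in the 8 transplants. Anti-PD-1 tumor 6 had 12, among them chromosome 13 from 20794113 to 30711231 (39 of 48 genes higher) and chromosome 8 from 47490115 to 60908671 (23 of 26 genes higher). In isotype tumor 2 all 18 genes of chromosome 8 from 123042466 to 123536650 were lower, with a median of −0.78. Other regions were gene families that lie side by side, such as the immunoglobulin kappa segments and the HoxA cluster on chromosome 6, the granzymes on chromosome 14 and the interferon-induced genes of chromosomes 1, 5 and 19.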

How the data were processed

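Whole tumors were profiled by bulk RNA-seq, and groups were taken from the GEO labels. The authors deposited 1 table of raw read counts per gene for the 50 libraries (Trimmomatic 0.36, STAR 5.5.4b and HTSeq, mm10, per the submitters' processing notes), and whether strand was used in counting is not given in the sources used here. The study's methods give a different version of STAR. Of 37469 gene identifiers 37408 matched a symbol in the gene annotation of GRCm38 given with the data.

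The deposited counts were scaled by TMM in edgeR 4.0.16 (R 4.3.3) and converted to log2 CPM with a prior count of 2, and genes with an average of at least 1 CPM over the 24 unirradiated libraries were tested. Log2 CPM does not correct for gene length, so levels were not compared between genes. Spread was tested with limma 3.58.1 on each library's absolute deviation from the mean of its model (robust, with trend, two-sided, Benjamini-Hochberg over all genes, threshold 0.05). The study's methods give no test of spread. After that result was known, the log2 of the deviation plus 0.05 was added, and adjusted p-values of single genes in the text are on that scale. Both were tested on simulated data. The first recovered no changed gene. The second recovered a minority of the genes with the larger difference in SD and none with the smaller, and its false calls exceeded the share the threshold allows, so single calls are uncertain. Distances were compared by an exact permutation test and list correlations by 100000 permutations, with a smallest p of 1e-05. The irradiated libraries were scaled and filtered by themselves. Total counts of at least 37743696 leave little counting error for genes well above 1 CPM.

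Genes were named if they belonged to a listed group, were sex-linked or Trp53, had the 20 largest SDs in primary tumors (average log2 CPM of at least 2), the 10 largest calls in primary tumors or 5 in transplants, led a program (5 each), had the 2 largest gaps of a tumor, or lay in a region of neighboring genes. The members, gene lists and tests were chosen with earlier results of these data known. The lists of germline genes, all Hox genes, homeobox and T-box genes, the imprinted Ndn domain, the granzyme cluster, the liver and host genes of small nucleolar RNAs, and the figure genes, were chosen after values had been seen. The titles carry a different number for each library and the study measured each mouse once, so p-values measure the spread between tumors of separate mice, with 1 library each. Alternatives included the size factors and variance stabilizing transform of DESeq2 1.42.0, other filters, prior counts and centers, single antibody groups and leaving out each library. 1 gene that the rule would name is not reported here.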

Additional observations from a re-analysis of the deposited data

Results flagged for a closer look

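In the 8 transplants, 81 list means, program means and named genes were looked at for 1 library far from the other 7, and 12 stood apart. Chance gives such a gap in about 1 of 20 groups, and many of these values share genes. Cav1, Tes, Capza2 and Met were added to the 81 from a region of neighboring genes that was high in 1 transplant, described below. The chance rate does not apply to flags of these genes. All 12 came from 2 libraries. Both are part of the yardstick of 8 unirradiated transplants, except where the text leaves a library out or takes 1 antibody alone.

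Transplant isotype 1 was lowest for the skeletal muscle list (2.146, next lowest 6.891), the smooth muscle list (2.944, next 4.316), the muscle program (−1.074, next 3.061) and Igfn1, a muscle protein (1.174, next 3.898). The same library lay farthest from the mean of the transplants.

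Transplant anti-PD-1 2 was highest for the keratinocyte list (2.941, next highest 2.155), Irx2 (1.046, next −1.552), Cav1, the coat protein of caveolae (11.25, next 9.047), Tes, a focal adhesion protein (10.48, next 8.664), and Capza2, an actin capping subunit (10.65, next 9.077). It was lowest for the imprinted Ndn domain list (1.649, next lowest 2.175), the neutrophil and metalloproteinase program (1.832, next 2.955) and Ddx3y (5.05, next 5.687). Cav1, Tes and Capza2 are neighbors on chromosome 6 in a region (13834458 to 22356243, GRCm38) where 13 of 22 genes were higher in that transplant, with a highest median of 1.868 on the log2 scale over 15 neighboring genes. Met, the receptor of hepatocyte growth factor in the same region, read 9.53 there and 5.61 to 7.64 in the other 7. DNA copy number was not analysed here.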

How the results depend on the processing

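The larger distance of primary tumors from their mean (difference 17.7) kept its direction under all 13 alternatives and stayed past the threshold in 11. Within the isotype libraries it was 18.7 and within the anti-PD-1 libraries 13.6, both short of the threshold with 8 tumors against 4 (the p ranged from 0.0001713 to 0.08283 over the alternatives, by exact permutation). Leaving out each library in turn gave 13.8 to 22.9. On absolute deviations the count of genes more variable in primary tumors, 0, became 231 with no filter on low counts and stayed 0 to 0 without any single library. The count in transplants, 0, became 10 with the variance stabilizing transform, 190 with no filter and 3 in the anti-PD-1 libraries alone, and 0 to 2 without single libraries.

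On the log2 scale, added after seeing the data, the 202 genes became 351 with the variance stabilizing transform, 833 with no filter, 59 with centers at medians, 79 and 24 in the isotype and anti-PD-1 libraries alone and 505 with the muscle and T cell levels regressed out. Leaving out single libraries gave 95 to 277. The 7 genes in transplants became 29 with the transform, 189 with no filter, 3 with the filter applied in each model, 4 with antibody groups as centers, 0 with medians as centers, 0 in the isotype libraries alone and 4 with muscle regressed out, and 1 to 12 without single libraries. In the irradiated tumors the share of genes called, 0.467%, became 0.948% with antibody groups as centers. The cause of these changes was not tested, except that fewer libraries enter the fits of 1 antibody. Genes with few reads enter when the filter is dropped.

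Of the 18 correlations 7 passed the threshold on r, 3 without the 2 tumors farthest from the median of the first list, and 4 to 8 without single tumors, the lowest without anti-PD-1 tumor 4. 3 weak correlations changed sign without those 2 tumors: muscle with Schwann cell genes (0.156 to −0.130, and −0.0233 to 0.439 without single tumors), T cell with macrophage genes (0.032 to −0.0874, and −0.123 to 0.169) and imprinted growth with embryonic muscle genes (0.0772 to −0.305, and −0.156 to 0.225). No paired analysis was possible because replicate numbers only count libraries in accession order. Depth limits genes near 1 CPM, and 8 transplants limit every SD of the yardstick.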
